A study of Mus musculus with 13 samples.

Results

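A set of 109 genes was described that stood higher in cells that had not switched on a Nestin reporter than in cells that had, after fibroblasts were treated with a chemical cocktail meant to turn them into neural stem cells. The genes were chosen by their RNA levels in 5 of 9 libraries. A member had a level of 10 CPM or more in both GFP-negative libraries, where CPM is a gene's counts per 1000000 counts of its library, stood at least 1.5 above untreated cells in both, and stood at least 1 above the GFP-positive library of the same day, with differences taken on the log2(CPM + 1) scale. Of the 30332 genes in the table, 8707 had 10 CPM or more in both GFP-negative libraries, 258 of these also stood 1.5 above untreated cells in both, 147 of the 258 did not stand 1 above the GFP-positive library on both days, and 2 were left out as predicted genes by their symbols.

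All cells carried the Nestin::GFP transgene, whose green fluorescence stands for the activity of Nestin, an intermediate filament gene of neural stem and progenitor cells, and all were labelled as passage 3. Mouse embryonic fibroblasts, isolated at embryonic day 13.5, were profiled as untreated primary cells (D0) and, without sorting, after 1 and 2 days of VCR (D1 and D2). VCR is valproic acid, which inhibits histone deacetylases, with CHIR99021, which inhibits the kinase GSK3, and RepSox, which inhibits the type I TGF-beta receptor. VCR-treated fibroblasts were sorted at D4 and D8 into GFP-negative and GFP-positive cells, written GFP- and GFP+ with D4 first and D8 second in every pair of values. GF denotes sorted GFP-positive cells from fibroblasts given IL6 at 50 ng/ml for 2 days, then FGF5 at 50 ng/ml and LIF at 100 ng/ml for 4 days, and last EGF with bFGF, both at 20 ng/ml, and NSC denotes sorted GFP-positive primary neural stem cells. The labels give no untreated culture at later days and no number of animals. A GFP-negative cell is known only as one below the sorting gate for the reporter. Each group was 1 library of between 20104940 and 36751356 estimated counts, so no value has a replicate error, no p-value is given, and the 95% intervals of ratios cover counting error only. The limit that a count of 0 allows, taken as 3 counts, was lowest in D0 (0.0816 CPM) and highest in NSC (0.149 CPM).

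As background, connective tissue fibroblasts secrete collagens and small leucine-rich proteoglycans, and they also act as sentinels: when exposed to inflammatory cytokines they release CXC chemokines that draw neutrophils, acute-phase proteins, prostaglandins and matrix metalloproteases. GSK3 inhibition stabilises beta-catenin, the effector of canonical Wnt signalling, and histone deacetylase inhibitors raise the RNA of many genes that are silent in a given cell. Activin and BMP antagonists, Wnt ligands and secreted Wnt inhibitors are further signals by which fibroblasts act on their neighbours.

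By role the members fell into 13 groups, the largest being proteases and protease inhibitors with 14 genes, growth factors and their antagonists with 12, and metabolic enzymes and transporters with 12. Members matched to RefSeq positions on GRCm38.p6 numbered 108, and Fam105a was not matched. Together the members held 0.340% of all counts at D0, 0.944% at D1, 1.49% at D2, 1.75% and 2.75% in GFP-, 0.418% and 0.469% in GFP+, 2.38% in GF and 0.277% in NSC. Their median level was 10.5, 33.9 and 41.2 CPM over D0 to D2, 52.8 and 94.5 CPM in GFP-, 12.3 and 15.4 CPM in GFP+, 27.7 CPM in GF and 4.05 CPM in NSC.

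**Figure D1:**
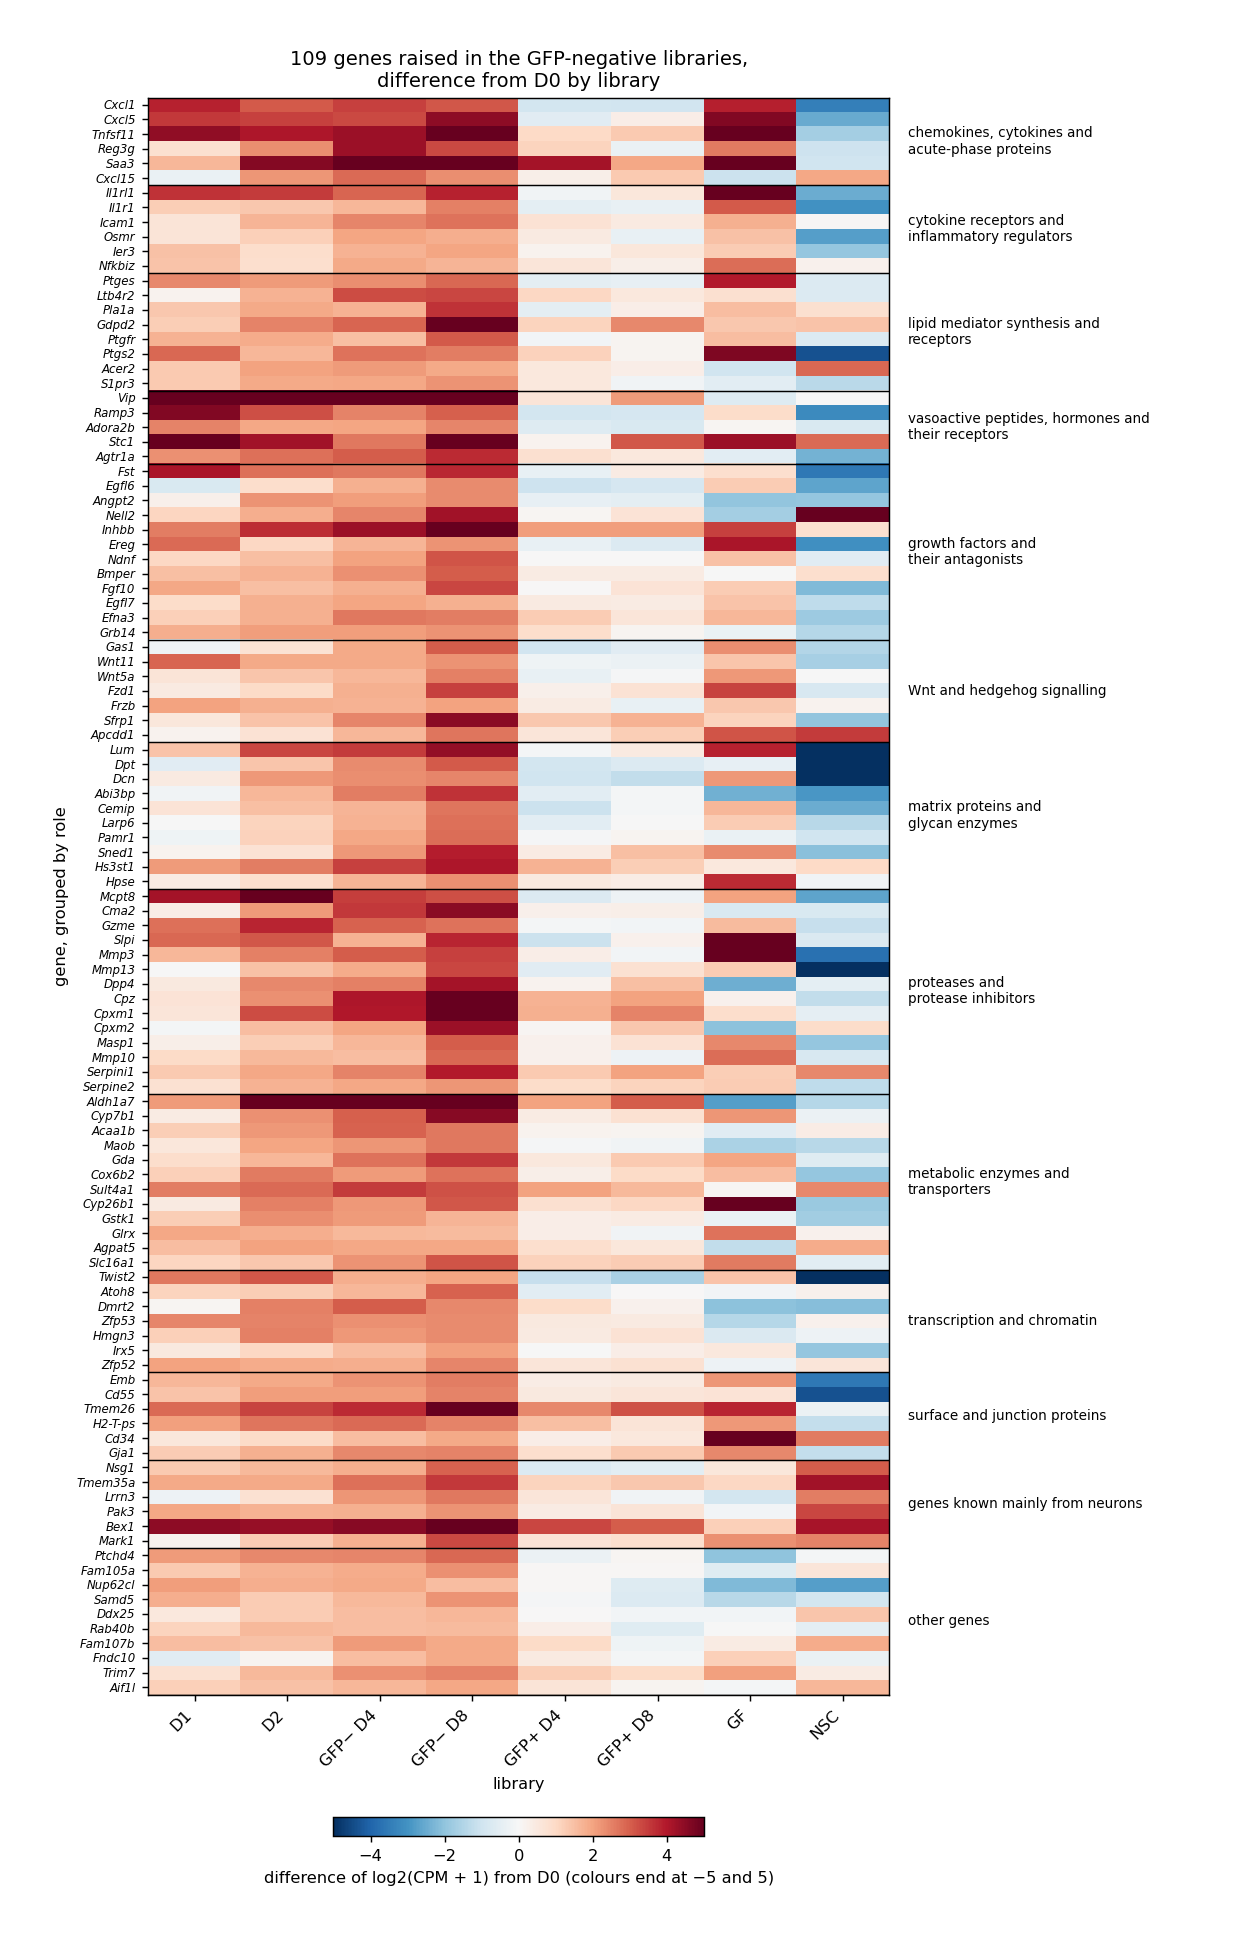
Each row is 1 of the 109 genes, grouped by role, and each column 1 library, coloured by the difference of log2(CPM + 1) from D0, with colours ending at -5 and 5. The D1, D2 and GFP-negative columns are mostly red and the GFP-positive columns pale, while GF holds both strong red and blue and NSC is mostly blue, with 43 of 88 members compared 2-fold lower than D0.

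The working name of the set, genes raised only in the GFP-negative fraction, did not hold for all members. Here and below, 2-fold means a difference of 1 on the log2(CPM + 1) scale, and higher or lower in a count means at least that. In 15 members (Aldh1a7, Bex1, Cpxm1, Cpz, Gdpd2, Hs3st1, Inhbb, Saa3, Serpini1, Sfrp1, Slc16a1, Sult4a1, Tmem26, Tmem35a and Tnfsf11) both GFP+ libraries were also 2-fold or more above D0, and in 32 at least 1 of them was. That count of 15 became 8 with median ratio or TMM scaling, 9 with quantile normalization and 7 with a pseudocount of 5. A further 72 members lay within 2-fold of D0 in both GFP+ libraries, and 5 (Cemip, Dcn, Egfl6, Slpi and Twist2) were 2-fold lower in at least 1. The GF library, sorted as GFP-positive, held the highest level of 16 members, and NSC that of 6, with no share over all genes given. In what follows the members are therefore called genes raised in the GFP-negative libraries. The GF library was GFP-positive by sorting, yet its Nes level was 51.0 CPM, against 784 and 721 CPM in GFP+, 344 CPM in NSC and 25.9 and 32.2 CPM in GFP-.

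Because the rule used D0, GFP- and GFP+, the levels in those 5 libraries describe the choice and test nothing. D1, D2, GF and NSC were not used, but any difference from D0 shares the D0 library with the rule. Only D2 against D1 and GF against NSC are free of the libraries the rule used. Even there, the members had passed the floor and margins of the rule, which the genes set beside them had not. These are bulk libraries, so fewer cells of a type and less RNA per cell cannot be told apart.

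Promoter sequences are shown for 5 members: the metalloprotease genes Mmp13, Mmp3 and Mmp10 because they are neighbouring members on chromosome 9, Cxcl1 as the chemokine furthest above GFP+, and Saa3 as the acute-phase gene with the highest rise in GF. Each runs 5′ to 3′ from 250 bases before to 50 bases after a RefSeq start site on GRCm38.p6. That site is the gene start for the metalloprotease genes and Cxcl1. For Saa3 it lies inside the gene, which spans chr7:46711998-46719615. Capitals in the metalloprotease promoters mark the AP-1 motif TGANTCA and then the TATA box motif TATAAA, those in Cxcl1 mark the NF-kB motif on either strand, and those in Saa3 mark the C/EBP motif TTGCNNAA on the opposite strand.
Mmp13, chr9:7272264-7272563, plus strand: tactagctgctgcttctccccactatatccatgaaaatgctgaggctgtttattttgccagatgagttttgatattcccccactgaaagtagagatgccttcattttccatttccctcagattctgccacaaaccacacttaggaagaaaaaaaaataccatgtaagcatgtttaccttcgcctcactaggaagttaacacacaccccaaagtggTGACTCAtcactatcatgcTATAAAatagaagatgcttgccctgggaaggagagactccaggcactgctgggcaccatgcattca
Mmp3, chr9:7445572-7445871, plus strand: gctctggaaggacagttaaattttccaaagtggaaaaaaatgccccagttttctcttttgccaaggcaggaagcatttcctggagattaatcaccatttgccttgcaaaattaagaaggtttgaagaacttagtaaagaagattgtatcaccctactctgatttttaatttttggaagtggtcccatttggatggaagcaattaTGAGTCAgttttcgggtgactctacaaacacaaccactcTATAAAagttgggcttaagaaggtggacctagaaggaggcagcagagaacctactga
Mmp10, chr9:7502092-7502391, plus strand: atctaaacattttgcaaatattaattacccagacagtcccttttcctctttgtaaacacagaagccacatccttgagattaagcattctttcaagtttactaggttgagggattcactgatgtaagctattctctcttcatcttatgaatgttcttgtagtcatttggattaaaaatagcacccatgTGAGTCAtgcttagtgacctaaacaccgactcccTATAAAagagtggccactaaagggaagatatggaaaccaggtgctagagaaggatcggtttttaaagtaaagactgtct
Cxcl1, chr5:90890995-90891294, plus strand: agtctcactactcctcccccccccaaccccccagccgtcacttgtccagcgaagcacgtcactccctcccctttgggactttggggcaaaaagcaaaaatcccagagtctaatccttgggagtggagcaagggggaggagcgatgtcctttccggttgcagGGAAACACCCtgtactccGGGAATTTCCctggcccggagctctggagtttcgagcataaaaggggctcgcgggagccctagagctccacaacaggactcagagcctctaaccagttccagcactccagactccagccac
Saa3, chr7:46715627-46715926, minus strand: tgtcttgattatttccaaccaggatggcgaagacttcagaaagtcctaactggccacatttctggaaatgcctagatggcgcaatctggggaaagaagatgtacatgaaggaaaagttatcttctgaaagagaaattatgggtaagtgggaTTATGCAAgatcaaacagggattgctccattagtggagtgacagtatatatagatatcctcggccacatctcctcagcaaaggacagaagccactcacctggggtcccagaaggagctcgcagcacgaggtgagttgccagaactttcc

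The first base of the AP-1 match lay at -35 in Mmp13, -46 in Mmp3 and -63 in Mmp10, and that of the TATA match at -16, -7 and -29. In all 3 promoters the AP-1 letters stood upstream of the TATA letters. Cxcl1 held its NF-kB matches at -89 and -71, and Saa3 its C/EBP match at -99 from the start site inside the gene. RefSeq promoters were given for 79 of the 109 members, and 10 motifs were searched on both strands in these and in all 27025 genes with a RefSeq promoter. No member held overlapping matches of different motifs. AP-1 letters occurred in 7 of 79 members (8.86%), in 5.70% of 6830 genes with 10 CPM or more in both GFP- libraries, and in 8.97% of all. C/EBP letters occurred in 16 members (20.3%), 9.74% of the expressed genes and 12.2% of all. TATAAA occurred in 16 members (20.3%), 8.17% of the expressed genes and 15.7% of all. The TCF/LEF letters CTTTGAT, which the partners of beta-catenin bind, occurred in 6 members (7.60%; Aif1l, Cpz, Egfl7, Emb, Reg3g and Wnt11), 3.02% of the expressed genes and 4.29% of all. STAT letters (TTCNNNGAA) occurred in 4 members (5.06%), against 7.97% and 9.55%, and NF-kB letters in Cxcl1 alone (1.27%), against 1.87% and 1.90%. The CRE letters TGACGTCA occurred in 0 of 79 members, 3.81% of the expressed genes and 2.03% of all, TEAD letters (GGAATG) in 13 (16.5%), against 13.6% and 16.6%, the CCAAT box (CCAAT) in 27 (34.2%), against 43.3% and 41.1%, and the E-box CACGTG in 7 (8.86%), against 13.03% and 8.09%. A match is a description of letters in a short window and not a site of binding.

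Secreted inflammatory signals gave 4 of the 12 members furthest above GFP+. All 6 members of this group were 2-fold or more above D0 at D2, and 4 already at D1, against 6.74% and 6.63% of all genes compared. (Counts by role, here and below, are over all members of the role, without a floor on low values, while the shares of all genes are over those that reached 5 CPM in at least 1 library of the pair.) Cxcl1, a chemokine that attracts neutrophils, was at 30.6, 455 and 265 CPM over D0 to D2, 335 and 272 in GFP-, 15.7 and 15.3 in GFP+, 467 in GF and 1.94 in NSC. It was high in every treated library except GFP+, and the D1 level was 14.9-fold (95% interval 14.02 to 15.8) that of D0. Cxcl5, another neutrophil chemokine, was at 15.7, 191 and 175 CPM over D0 to D2, 164 and 372 in GFP-, 10.2 and 19.8 in GFP+, 406 in GF and 1.88 in NSC. Cxcl15, known in mice as the lung chemokine lungkine, was at 2.04, 1.42 and 12.99 CPM over D0 to D2, 20.8 and 14.1 in GFP-, 2.75 and 6.52 in GFP+, 0.434 in GF and 10.5 in NSC, and so was near its D0 level at D1 and low in GF, where the other members of its cluster, Cxcl1, Cxcl5 and Ereg, were high. Its D8 level was only 1.00 above GFP+ on the log2 scale, the smallest such margin of any member.

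Tnfsf11, the RANK ligand that drives osteoclast formation, was at 2.23, 69.1 and 52.7 CPM over D0 to D2, 61.99 and 109 in GFP-, 5.52 and 6.96 in GFP+, 309.8 in GF and 0 in NSC. Its D1 level was 30.98-fold (95% interval 24.8 to 39.1) that of D0, and its GF level was 2.85-fold (95% interval 2.72 to 2.98) that of GFP- D8. Saa3, a serum amyloid gene of the acute-phase response, was at 0.980, 5.32 and 46.1 CPM over D0 to D2, 83.9 and 72.4 in GFP-, 34.1 and 6.62 in GFP+, 1046 in GF and 0 in NSC. Its level in GF was 14.4-fold (95% interval 13.8 to 15.2) that of GFP- D8, and GFP+ was above D0 at both days. Reg3g, an antimicrobial lectin of epithelia, was at 1.06, 2.61 and 9.43 CPM over D0 to D2, 38.9 and 19.4 in GFP-, 3.48 and 0.623 in GFP+, 11.4 in GF and 0 in NSC, highest in GFP- D4. Of the 26 genes of a broader chemokine and cytokine list, 4 are members. Of its genes compared, 8 of 15 were higher than D0 and 2 lower in GFP- D4, and 8 higher and 1 lower in GFP- D8, where 11% and 16.4% of all genes compared were higher and 5.28% and 6.12% lower. Of acute-phase and STAT3 target genes, 2 of which are members, 9 of 10 compared were higher in GFP- D4 and 8 of 11 in GFP- D8, with 0 lower, against the same shares of all genes. Lists share D0 and the GFP- libraries with the rule, so their counts describe the same libraries. Here and below, every member in a list counts as higher in GFP- than in D0 and GFP+ by the rule itself.

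**Figure D2:**
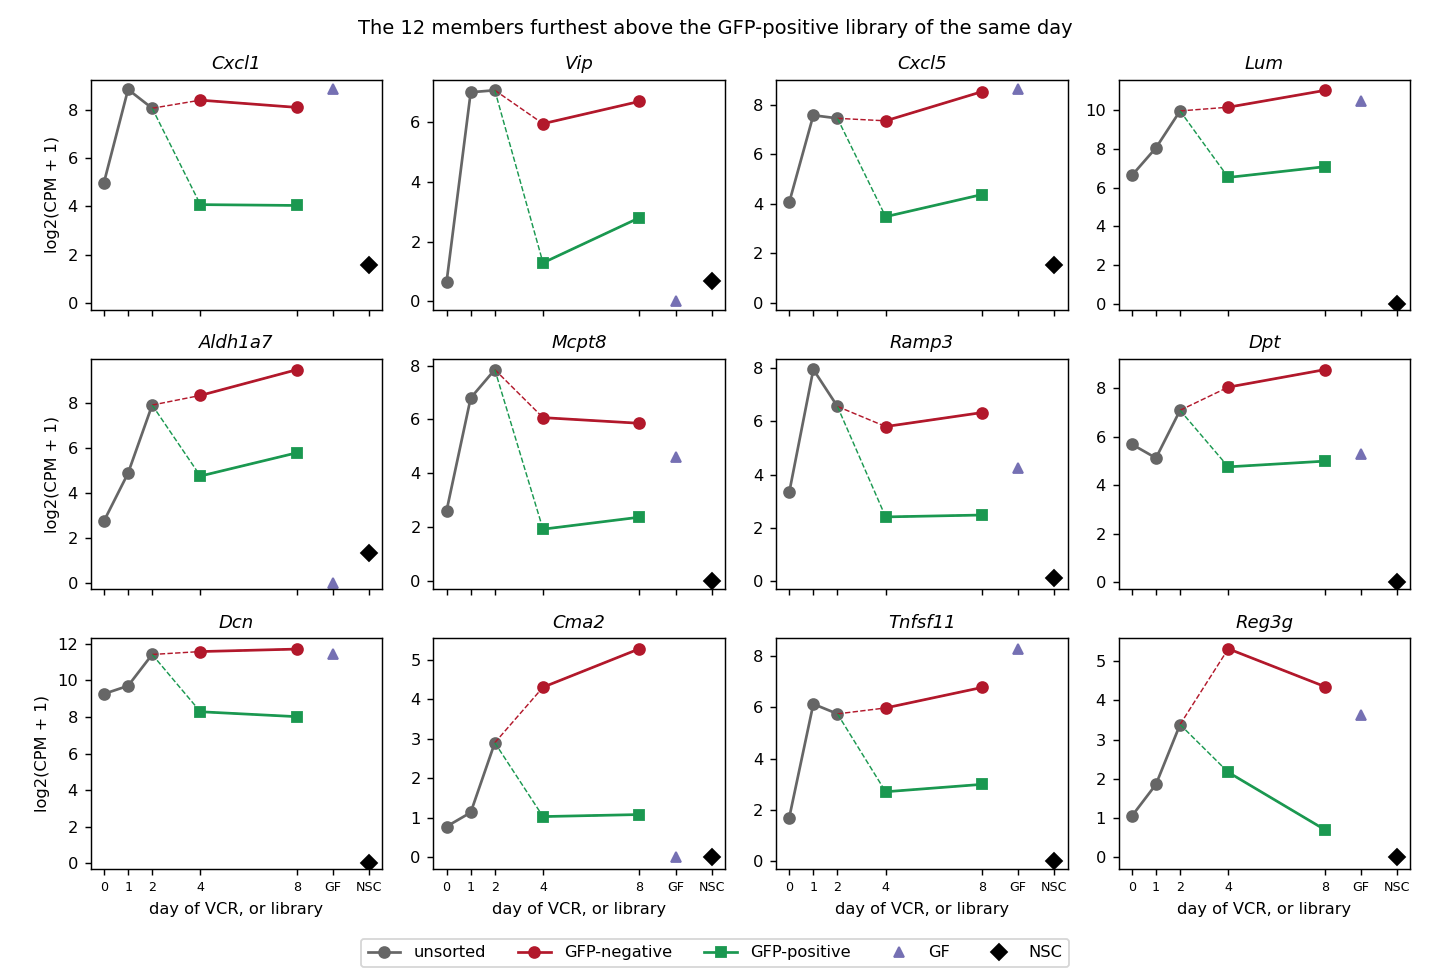
Level in log2(CPM + 1) of the 12 members furthest above the GFP-positive library of the same day, by day of VCR or library, with 1 point per library and dashed lines from unsorted D2 to the sorted fractions. In all 12 panels the GFP-negative points lie above the GFP-positive ones, while GF lies near or above the GFP-negative points for Cxcl1, Cxcl5, Tnfsf11, Lum and Dcn and at 0 for Vip, Aldh1a7 and Cma2.

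Receptors and intracellular regulators of inflammation formed a group of 6. None of them reached 2-fold above D0 in either GFP+ library, and all 6 were 2-fold above D0 in GF, where 32.1% of all genes were, against 38.5% and 35.7% in GFP+. The GFP+ count was fixed in part by the rule, which asked GFP+ to lie at least 1 below GFP-. Osmr, the oncostatin M receptor chain that signals through STAT3, was at 74.6, 118 and 172 CPM over D0 to D2, 296 and 268 in GFP-, 103 and 58.1 in GFP+, 209 in GF and 10.3 in NSC. Ier3, an immediate early gene of stress responses, was at 76.1, 209.95 and 141 CPM over D0 to D2, 258 and 300.01 in GFP-, 84.96 and 113 in GFP+, 184 in GF and 19.3 in NSC. Neither reached 4 times its D0 level in any library. The interleukin 33 receptor Il1rl1 and the interleukin 1 receptor Il1r1 are given with their gene cluster. Icam1, a leukocyte adhesion molecule, reached 207 CPM in GFP- D8 from 30.3 CPM at D0, and Nfkbiz, a nuclear cofactor of NF-kB, 71.2 CPM in GFP- D4 from 18.4 CPM.

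Enzymes and receptors of lipid mediators made up 8 members, all 2-fold above D0 at D2 and 7 at D1, against 6.74% and 6.63% of all genes. Ptgs2, the inducible cyclooxygenase of prostaglandin synthesis, was at 19.6, 150.3 and 63.1 CPM over D0 to D2, 135 and 121 in GFP-, 44.3 and 21.3 in GFP+, 516 in GF and 0 in NSC. Ptges, the synthase that makes prostaglandin E2 from its product, was at 25.6, 138 and 116 CPM over D0 to D2, 130.3 and 191 in GFP-, 18.1 and 18.9 in GFP+, 419 in GF and 15.4 in NSC. Both enzymes of this route were highest in GF and lower in GFP+ than at D1 or D2, although Ptgs2 in GFP+ D4 stood 1.14 above D0 on the log2 scale. Ptgfr, the receptor for prostaglandin F2 alpha, was at 10.7, 37.97 and 41.2 CPM over D0 to D2, 32.3 and 96.2 in GFP-, 9.75 and 11.7 in GFP+, 32.7 in GF and 6.17 in NSC. In GFP- D4 it stood 1.51 above D0 on the log2 scale, the smallest such margin of any member. Acer2, a ceramidase of the Golgi, was at 2.53, 7.75 and 13.1 CPM over D0 to D2, 14.4 and 12.2 in GFP-, 4.07 and 3.45 in GFP+, 0.767 in GF and 24.5 in NSC, highest in NSC. Gdpd2, a glycerophosphodiester phosphodiesterase, was at 0.599, 2.73 and 7.82 CPM over D0 to D2, 10.9 and 52.4 in GFP-, 2.44 and 7.45 in GFP+, 3.02 in GF and 3.33 in NSC and rose from D4 to D8 in both fractions. The other 3 members of the role, Ltb4r2 (a leukotriene B4 receptor), Pla1a (a phosphatidylserine phospholipase) and S1pr3 (a sphingosine-1-phosphate receptor), stood between 15.7 and 560.1 CPM in GFP- D8. The prostaglandin and eicosanoid list holds 3 members, which were higher than D0 in GFP- by the rule. With them, 4 of 8 genes compared were higher and 0 lower in GFP- D4, and 7 of 9 higher and 0 lower in GFP- D8. Over all genes 11% and 16.4% were higher and 5.28% and 6.12% lower.

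Vasoactive peptides and their receptors had the highest median at D1 of the 13 roles, 4.61 above D0 on the log2 scale, and all 5 members were 2-fold or more above D0, against 6.63% of all genes. Vip, the vasoactive intestinal peptide, was at 0.571, 128 and 134 CPM over D0 to D2, 60.999 and 103 in GFP-, 1.44 and 5.96 in GFP+, 0 in GF and 0.597 in NSC. It was nearly silent at D0, rose 224-fold (95% interval 146 to 362) by D1, and had 0 counts in GF. Ramp3, a coreceptor that turns the calcitonin receptor-like receptor into an adrenomedullin receptor, was at 9.09, 245 and 93.2 CPM over D0 to D2, 54.9 and 79.3 in GFP-, 4.34 and 4.61 in GFP+, 17.96 in GF and 0.0995 in NSC, highest at D1. Stc1, the glycoprotein hormone stanniocalcin 1, was at 3.86, 153 and 88.2 CPM over D0 to D2, 29.7 and 425 in GFP-, 4.57 and 41.2 in GFP+, 92.9 in GF and 33.2 in NSC. Its D1 level was 39.6-fold (95% interval 33.5 to 47.1) that of D0. It fell to D4 and rose again to D8 in GFP-, by 3.80 on the log2 scale, the largest D4 to D8 rise of any member, and it was also higher in GFP+ at D8 than at D4. Agtr1a, the angiotensin II receptor, was at 4.08, 23.6 and 33.7 CPM over D0 to D2, 40.8 and 65.9 in GFP-, 7.82 and 6.23 in GFP+, 2.53 in GF and 0 in NSC and rose at each step to GFP- D8. The fifth member, the adenosine receptor Adora2b, was at 58.2 CPM at D1 and 9.52 CPM at D0.

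Growth factors and their antagonists numbered 12, of which 9 were 2-fold above D0 at D1 and 11 at D2, against 6.63% and 6.74% of all genes. Fst, follistatin, which binds and blocks activins, was at 38.9, 683 and 266 CPM over D0 to D2, 246 and 546 in GFP-, 29.996 and 52.3 in GFP+, 69.5 in GF and 2.34 in NSC. Inhbb, which encodes the activin B subunit that follistatin binds, was at 18.1, 111 and 246 CPM over D0 to D2, 373 and 668 in GFP-, 79.6 and 80.3 in GFP+, 206 in GF and 32.03 in NSC. The antagonist peaked at D1, at 17.5-fold (95% interval 16.6 to 18.5) its D0 level, and the ligand subunit climbed through every step to GFP- D8. Both GFP+ libraries held Inhbb 2-fold above D0 and Fst within 2-fold of it. Fgf10, a fibroblast growth factor by which mesenchyme signals to epithelium, was at 11.4, 46.5 and 34.3 CPM over D0 to D2, 41.5 and 124 in GFP-, 11.5 and 18.8 in GFP+, 28.6 in GF and 1.65 in NSC. Ereg, the EGF receptor ligand epiregulin, was at 7.46, 59.6 and 16.3 CPM over D0 to D2, 26.7 and 39.5 in GFP-, 5.61 and 4.24 in GFP+, 141 in GF and 0 in NSC, with GF highest and 0 counts in NSC. Angpt2, an angiopoietin of blood vessel remodelling, was at 18.1, 21.9 and 88.5 CPM over D0 to D2, 79.2 and 96.9 in GFP-, 13.3 and 12.5 in GFP+, 3.83 in GF and 4.05 in NSC. Its levels in GF and NSC lay below D0. Nell2, a secreted ligand known from neurons, was at 4.87, 11.3 and 19.7 CPM over D0 to D2, 31.2 and 106 in GFP-, 5.34 and 8.49 in GFP+, 0.812 in GF and 189 in NSC. The difference of GF from NSC was -6.71, the lowest of any member. Egfl6, a matrix-bound EGF repeat protein, was at 23.6, 13.7 and 43.8 CPM over D0 to D2, 83.4 and 124 in GFP-, 11.1 and 12.9 in GFP+, 58.2 in GF and 2.92 in NSC and was lower at D1 than at D0. Egfl7, a secreted protein best known from endothelium, was at 8.68, 17.2 and 32.2 CPM over D0 to D2, 36.8 and 32.4 in GFP-, 12.1 and 11.8 in GFP+, 24.7 in GF and 2.98 in NSC. The remaining members of the role were Bmper (a BMP-binding regulator), Efna3 (an ephrin), Grb14 (an adaptor of the insulin receptor) and Ndnf (a secreted neurotrophic factor), at 37.99 to 235 CPM in GFP- D8. Of the TGF-beta and BMP list, in which Inhbb and Fst are the 2 members, 6 of 20 genes compared were higher in GFP- D4 and 12 of 22 in GFP- D8, with 0 lower, against 11% and 16.4% of all genes higher and 5.28% and 6.12% lower.

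Of the 7 members of Wnt and hedgehog signalling, 2 were 2-fold above D0 at D1 and 4 at D2, against 6.63% and 6.74% of all genes. Between GFP- D4 and D8, both used by the rule, 4 of the 7 rose 2-fold, against 3.68% of all genes. Wnt11, a ligand of mainly non-canonical Wnt signalling, was at 2.18, 22.9 and 10.8 CPM over D0 to D2, 10.9 and 14.2 in GFP-, 1.75 and 1.59 in GFP+, 7.27 in GF and 0 in NSC, highest at D1. Sfrp1, a secreted Wnt inhibitor, was at 45.9, 67.5 and 126 CPM over D0 to D2, 251 and 1064 in GFP-, 117 and 154 in GFP+, 101 in GF and 10.9 in NSC, so that GFP- was 6.89-fold (95% interval 6.68 to 7.12) GFP+ at D8 and 2.14-fold (95% interval 2.05 to 2.22) at D4. Frzb, a related secreted inhibitor, was at 2.91, 14.7 and 12.2 CPM over D0 to D2, 11.9 and 14.7 in GFP-, 4.22 and 2.01 in GFP+, 8.98 in GF and 3.38 in NSC, already near its GFP- level at D1. Apcdd1, a membrane-bound inhibitor of Wnt signalling, was at 2.88, 3.36 and 5.41 CPM over D0 to D2, 11.3 and 23.6 in GFP-, 4.97 and 8.001 in GFP+, 33.1 in GF and 42.5 in NSC, highest in NSC. Gas1, a coreceptor for hedgehog ligands, was at 133, 114 and 220.1 CPM over D0 to D2, 500.3 and 1098 in GFP-, 68.8 and 88.9 in GFP+, 669.7 in GF and 47.3 in NSC. Its level at D1 was 0.852-fold (95% interval 0.816 to 0.889) that of D0, and most of its rise came after D2. The ligand Wnt5a and the receptor Fzd1 reached 273 and 308 CPM in GFP- D8 and 215 and 302 CPM in GF. The Wnt list has 5 members among 31 genes, and these were higher than D0 in GFP- by the rule. With them, 9 of 17 genes compared were higher and 1 lower in GFP- D4, and 14 of 19 higher and 0 lower in GFP- D8. Over all genes 11% and 16.4% were higher and 5.28% and 6.12% lower. In the hedgehog list, 1 of 6 was higher in GFP- D4, which was the member Gas1, and 6 of 10 in GFP- D8, with Gas1 among them. On both days 0 were lower, to be read against the same shares. Hhip, a hedgehog-binding inhibitor in that list, was at 0.980 CPM at D0, 18.04 in GFP- D8 and 1.77 in GFP+ D8, and Gli1, the transcriptional target that most directly reports the pathway, stayed at 0.366 and 0.213 CPM in GFP-.

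Of the 10 members that encode matrix proteins and glycan enzymes, 2 were 2-fold above D0 at D1 and 8 at D2, against 6.63% and 6.74% of all genes. Dcn, decorin, a small leucine-rich proteoglycan that binds collagen fibrils, was at 613, 832 and 2734 CPM over D0 to D2, 3053 and 3355 in GFP-, 311 and 258 in GFP+, 2732 in GF and 0 in NSC. Lum, lumican, a proteoglycan of the same family, was at 97.5, 263 and 984 CPM over D0 to D2, 1123 and 2044 in GFP-, 90.9 and 134 in GFP+, 1420.2 in GF and 0 in NSC. These neighbours on chromosome 10 (chr10:97479500-97518163 and chr10:97565501-97572703) were high in D2, GFP- and GF, and had 0 counts in NSC. Dcn in GFP+ was below its D0 level, and Lum was near it. Dpt, dermatopontin, which binds decorin, was at 50.8, 33.9 and 136 CPM over D0 to D2, 265 and 437 in GFP-, 26.1 and 30.9 in GFP+, 38.3 in GF and 0 in NSC. It was lower at D1 than at D0, and GF lay near D0. Abi3bp, a matrix protein of connective tissue, was at 17.9, 15.9 and 58.9 CPM over D0 to D2, 109 and 229 in GFP-, 12.3 and 16.5 in GFP+, 2.62 in GF and 1.54 in NSC, with GF and NSC far below D0. Sned1, a matrix glycoprotein, was at 6.99, 8.01 and 12.1 CPM over D0 to D2, 35.3 and 121 in GFP-, 9.66 and 21.6 in GFP+, 39.8 in GF and 0.895 in NSC and did not reach 2-fold at D1 or D2. The other 5 genes of the role were Cemip, which takes part in hyaluronan breakdown, the heparan sulfate enzymes Hpse and Hs3st1, Larp6, which binds collagen RNA, and Pamr1, at 16.7 to 157 CPM in GFP- D8. The collagen chain list holds none of the members, and of 21 chains compared 0 were higher and 14 lower than D0 in GFP- D4. Of 22 compared in GFP- D8, 3 were higher and 8 lower. Over all genes 11% and 16.4% were higher and 5.28% and 6.12% lower. Col1a1, the main chain of type I collagen, went from 5658 CPM at D0 to 334 and 415 CPM in GFP-.

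Proteases and protease inhibitors were the largest role with 14 members, all 2-fold above D0 at D2 and 5 of them at D1, against 6.74% and 6.63% of all genes. Between GFP- D4 and D8, both used by the rule, 9 of the 14 rose 2-fold, against 3.68% of all genes. Mmp13, a collagenase, was at 122, 121 and 339.5 CPM over D0 to D2, 440.2 and 1245 in GFP-, 80.9 and 209 in GFP+, 296 in GF and 0 in NSC. Mmp3, stromelysin 1, which cleaves proteoglycans and activates other metalloproteases, was at 33.4, 107 and 194 CPM over D0 to D2, 279 and 363 in GFP-, 41.8 and 30.2 in GFP+, 6547 in GF and 1.61 in NSC. Mmp10, stromelysin 2, was at 5.75, 11.97 and 19.8 CPM over D0 to D2, 18.6 and 48.4 in GFP-, 6.75 and 4.71 in GFP+, 45.3 in GF and 2.92 in NSC. The 3 genes whose promoters are printed above had different timing: Mmp13 at D1 was 0.990-fold (95% interval 0.949 to 1.03) its D0 level, while Mmp3 was 3.19-fold (95% interval 2.98 to 3.40) its own. Mmp3 in GF was 18.05-fold (95% interval 17.7 to 18.4) that in GFP- D8, and Mmp13 was lower in GF than in GFP- D8.

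Mcpt8, a serine protease known from basophils, was at 5.14, 110.2 and 229 CPM over D0 to D2, 66.1 and 57.01 in GFP-, 2.82 and 4.19 in GFP+, 23.5 in GF and 0 in NSC. Cma2, a chymase gene, was at 0.707, 1.19 and 6.47 CPM over D0 to D2, 18.9 and 38.1 in GFP-, 1.03 and 1.11 in GFP+, 0 in GF and 0 in NSC. Mcpt8 peaked at D2, at 44.6-fold (95% interval 38.6 to 51.8) its D0 level, and fell into GFP-, while Cma2 was highest in GFP- D8 and had 0 counts in GF and NSC. Dpp4, a cell surface peptidase, was at 4.38, 6.57 and 27.8 CPM over D0 to D2, 29.9 and 94.5 in GFP-, 4.999 and 14.1 in GFP+, 0 in GF and 2.84 in NSC. Cpxm2, a carboxypeptidase family member without known catalytic activity, was at 5.41, 5.05 and 17.6 CPM over D0 to D2, 24.5 and 123 in GFP-, 5.86 and 15.4 in GFP+, 0.542 in GF and 10.99 in NSC. Both rose from D4 to D8 in GFP- and in GFP+ and were at or below 1 CPM in GF. Slpi, an inhibitor of leukocyte proteases, was at 3.86, 34.2 and 40.8 CPM over D0 to D2, 15.1 and 66.6 in GFP-, 1.29 and 4.71 in GFP+, 347 in GF and 1.94 in NSC, with a dip at GFP- D4 and the highest level in GF. Serpine2, a serpin that inhibits thrombin and urokinase, was at 566, 967 and 1893 CPM over D0 to D2, 2169.7 and 2642 in GFP-, 1061 and 1234 in GFP+, 1349.7 in GF and 234 in NSC. In GFP+ it stood 0.91 and 1.12 above D0 on the log2 scale, and the smaller of its margins over GFP+ was 1.03. The remaining proteases were the carboxypeptidase family genes Cpxm1 and Cpz, granzyme E (Gzme) and Masp1 of the complement lectin pathway, and the remaining inhibitor was Serpini1, neuroserpin, at 13.9 to 1203 CPM in GFP- D8. The matrix protease and inhibitor list holds 3 members, which were higher than D0 in GFP- by the rule. With them, 6 of 28 were higher and 7 lower in GFP- D4, and 10 of 28 higher and 7 lower in GFP- D8. Over all genes 11% and 16.4% were higher and 5.28% and 6.12% lower.

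Enzymes and transporters of metabolism numbered 12, all 2-fold above D0 at D2 and 8 at D1, against 6.74% and 6.63% of all genes. Aldh1a7, an aldehyde dehydrogenase, was at 5.71, 28.5 and 241 CPM over D0 to D2, 325 and 719.9 in GFP-, 25.9 and 54.3 in GFP+, 0 in GF and 1.49 in NSC. Its D2 level was 42.1-fold (95% interval 36.7 to 48.5) that of D0, and GF had 0 counts. Aldh1a7 has a close relative in Aldh1a1, so reads may have been shared between them. Cyp26b1, which degrades retinoic acid, was at 2.67, 4.04 and 20.02 CPM over D0 to D2, 15.4 and 30.4 in GFP-, 5.46 and 6.44 in GFP+, 119 in GF and 0 in NSC, with GF highest. Cyp7b1, an oxysterol hydroxylase, was at 12.5, 16.9 and 65.01 CPM over D0 to D2, 106 and 314 in GFP-, 16.9 and 21.6 in GFP+, 60.5 in GF and 10.1 in NSC and climbed at every step to GFP- D8. Gstk1, a glutathione transferase, was at 17.3, 41.8 and 89.8 CPM over D0 to D2, 78.6 and 58.5 in GFP-, 21.9 and 23.3 in GFP+, 13.5 in GF and 4.48 in NSC, highest at D2. Slc16a1, the monocarboxylate transporter for lactate, was at 31.3, 67.7 and 81.1 CPM over D0 to D2, 152 and 287 in GFP-, 71.4 and 76.5 in GFP+, 192 in GF and 21.3 in NSC, with GFP+ 2-fold above D0 as well. The other 7 were Acaa1b (a peroxisomal thiolase), Agpat5 (an acyltransferase), Cox6b2 (a cytochrome oxidase subunit), Gda (guanine deaminase), Glrx (glutaredoxin), Maob (monoamine oxidase B) and Sult4a1 (a sulfotransferase). They stood at 13.2 to 194 CPM in GFP- D8. Of the glutathione and xenobiotic list, with 1 member, 8 of 18 genes compared were higher and 2 lower in GFP- D4, and 11 of 20 higher and 1 lower in GFP- D8, against 11% and 16.4% of all genes higher and 5.28% and 6.12% lower.

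Transcription and chromatin genes made up 7 members, all 2-fold above D0 at D2, against 6.74% of all genes. None reached 2-fold above D0 in GFP+, a count that the rule fixed in part, where 38.5% and 35.7% of all genes did. Twist2, a basic helix-loop-helix factor of mesenchyme, was at 49.1, 312 and 427 CPM over D0 to D2, 177 and 193 in GFP-, 21.3 and 15.2 in GFP+, 134 in GF and 0 in NSC. It peaked at D2, fell by more than 2-fold into GFP- D4, and lay below D0 in GFP+, with 0 counts in NSC. Dmrt2, a DM domain factor, was at 10.04, 10.8 and 61.7 CPM over D0 to D2, 88.2 and 58.1 in GFP-, 19.8 and 11.9 in GFP+, 1.67 in GF and 1.49 in NSC, flat at D1 and highest in GFP- D4. The other 5 were the helix-loop-helix gene Atoh8, the nucleosome-binding gene Hmgn3, Irx5 and the zinc finger genes Zfp52 and Zfp53, of which Irx5, a homeobox gene, was at 12.3, 17.8 and 26.2 CPM over D0 to D2, 37.3 and 53.99 in GFP-, 11.98 and 15.7 in GFP+, 17.96 in GF and 2.49 in NSC. That gene stood 1.52 above D0 in GFP- D4, just inside the 1.5 the rule asked for.

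Surface and junction proteins made up 6 members. Cd34, a sialomucin of progenitor cells and of connective tissue fibroblasts, was at 7.33, 11.3 and 15.4 CPM over D0 to D2, 23.04 and 29.7 in GFP-, 9.37 and 10.99 in GFP+, 306 in GF and 50.1 in NSC. Its GF level was 10.3-fold (95% interval 9.55 to 11.2) that of GFP- D8, and NSC was also above every VCR library. Cd55, which protects cells from complement, was at 34.6, 95.4 and 149.9 CPM over D0 to D2, 149 and 197 in GFP-, 48.9 and 53.4 in GFP+, 56.6 in GF and 0.760 in NSC. The class I-like gene H2-T-ps was at 1.25, 8.32 and 13.4 CPM over D0 to D2, 15.1 and 11.5 in GFP-, 5.43 and 2.50 in GFP+, 9.07 in GF and 0 in NSC, and its reads may have been shared with other class I genes. Emb, Gja1 (connexin 43) and Tmem26 stood at 76.7 to 597 CPM in GFP- D8. The class I and antigen processing list had 1 of 9 genes higher and 1 lower in GFP- D4, 1 of 8 higher in GFP- D8 and 10 of 11 higher in GF, beside 11%, 16.4% and 32.1% of all genes higher.

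Genes known mainly from neurons gave 6 members. Bex1, a small adaptor of the neurotrophin receptor pathway, was at 0.590, 34.7 and 31.4 CPM over D0 to D2, 35.9 and 62.7 in GFP-, 15.1 and 12.1 in GFP+, 2.68 in GF and 26.9 in NSC. Its D1 level was 58.9-fold (95% interval 38.1 to 92.9) that of D0, and GFP+ was 2-fold above D0 too. Tmem35a, a chaperone of nicotinic acetylcholine receptors, was at 3.51, 15.6 and 15.97 CPM over D0 to D2, 29.5 and 50.6 in GFP-, 8.88 and 10.6 in GFP+, 8.17 in GF and 81.1 in NSC. Pak3, a p21-activated kinase of dendritic spines, was at 28.5, 111 and 97.9 CPM over D0 to D2, 101 and 138 in GFP-, 38.2 and 45.5 in GFP+, 26.1 in GF and 295 in NSC. Lrrn3, a neuronal leucine-rich repeat protein, was at 10.5, 8.56 and 18.6 CPM over D0 to D2, 52.8 and 71.2 in GFP-, 16.5 and 9.14 in GFP+, 5.01 in GF and 66.4 in NSC. NSC held more than GF of all 4, and Tmem35a and Pak3 were highest in NSC. The remaining Mark1, a microtubule affinity kinase, and Nsg1, an endosomal protein of neurons, reached 147 and 451 CPM in GFP- D8. In this role 0 of 6 members were higher and 5 lower in GF than in NSC, where 21.2% of all genes were higher and 42.4% lower.

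The last 10 members were placed in no named role. Fndc10, a membrane protein with a fibronectin domain, was at 12.5, 8.02 and 13.8 CPM over D0 to D2, 38.8 and 49.7 in GFP-, 17.5 and 11.6 in GFP+, 29.7 in GF and 9.60 in NSC. It was the lowest member in D2 minus D0, at 0.13. Rab40b, a small GTPase gene, was at 2.99, 7.61 and 11.1 CPM over D0 to D2, 10.6 and 10.9 in GFP-, 3.97 and 1.63 in GFP+, 2.93 in GF and 1.84 in NSC. Aif1l, which encodes an actin-binding relative of a macrophage protein, was at 15.6, 36.8 and 44.4 CPM over D0 to D2, 51.4 and 63.1 in GFP-, 24.7 and 17.2 in GFP+, 14.5 in GF and 52.1 in NSC. Both lay close to a threshold of the rule. Ddx25, Fam105a, Fam107b, Nup62cl, Ptchd4, Samd5 and Trim7 made up the rest, at 13.7 to 101 CPM in GFP- D8.

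The edges of the rule were narrow. At the floor of 10 CPM the lower of the GFP- levels was 10.6, 10.9 and 10.9 CPM for Rab40b, Wnt11 and Gdpd2 just inside, and 9.58, 9.54 and 9.51 CPM for Sbspon, Eepd1 and Tmem132c just outside. At the margin over D0 the smaller difference was 1.51, 1.52 and 1.53 for Ptgfr, Irx5 and Cd34 inside, and 1.4995, 1.4987 and 1.49 for Slc48a1, Siglecg and Lrrc32 outside. At the margin over GFP+ it was 1.00, 1.03 and 1.03 for Cxcl15, Aif1l and Serpine2 inside, and 0.97, 0.92 and 0.92 for Mfsd7c, H2-Ab1 and Xdh outside.

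Most members were already raised before the cells were sorted. At D1, 65 of 99 members compared were 2-fold or more above D0 and 0 were lower, with a median difference of 1.31, against 6.63% of 10532 genes higher, 5.92% lower and a median of 0.04 over all. (A gene was compared where at least 1 library of the pair reached 5 CPM.) At D2, 97 of 108 were higher and 0 lower with a median of 1.87, against 6.74% of 10547 genes higher, 6.04% lower and a median of 0.06. Both comparisons share D0 with the rule. Over all 109 members, 65 were 2-fold above D0 on both days, 2 at D1 only and 33 at D2 only. The 9 that were so on neither day were Apcdd1, Cd34, Egfl6, Fndc10, Fzd1, Gas1, Hpse, Lrrn3 and Sned1.

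D2 against D1 shares no library with the rule. There 32 of 108 members were 2-fold higher and 5 lower with a median of 0.55, against 1.2% of 10378 genes higher, 2.79% lower and a median of 0.03. Among the 32 were matrix genes (Abi3bp, Dcn, Dpt and Lum), proteases (Cma2, Cpz, Dpp4, Gzme, Mcpt8 and Mmp13) and the metabolic genes Aldh1a7, Cyp7b1 and Maob. The 5 that were lower were Ereg, Fst, Ptgs2, Ramp3 and Wnt11, all of them high at D1. The 5 members that had risen most at D1 were Vip, Stc1, Ramp3, Bex1 and Tnfsf11, and the 5 that had risen most at D2 were Vip, Mcpt8, Aldh1a7, Saa3 and Bex1. Lowest at D1 were Egfl6, Fndc10, Dpt, Cxcl15 and Lrrn3.

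**Figure D3:**
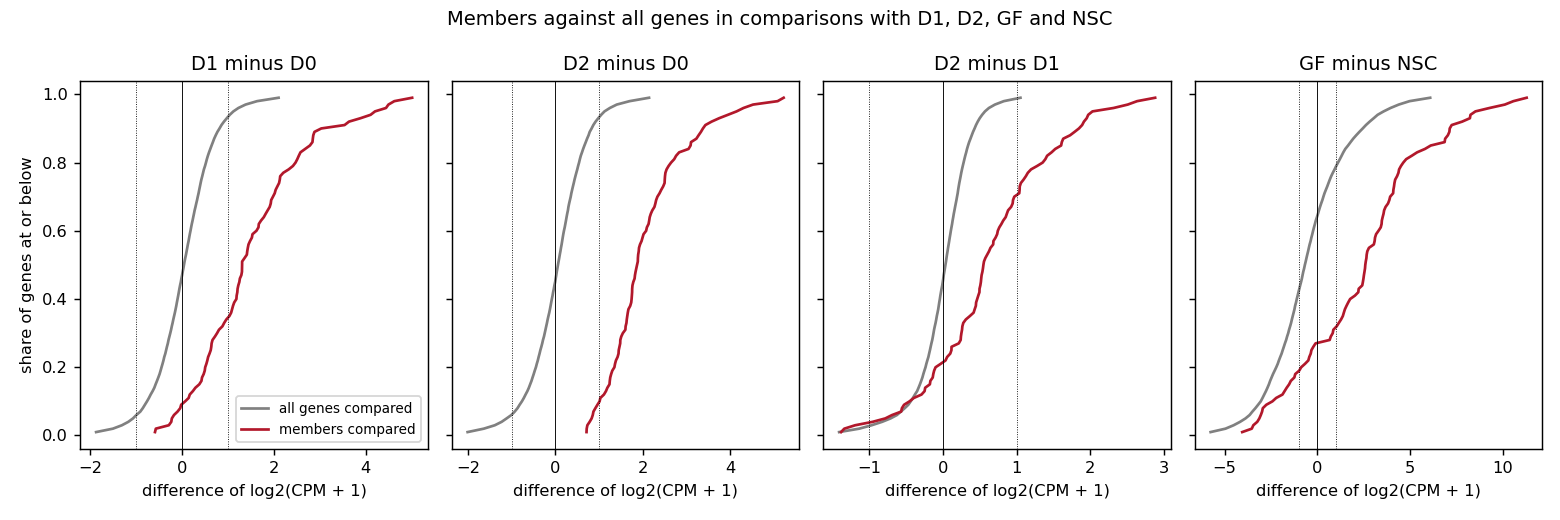
Share of genes at or below each difference of log2(CPM + 1) in 4 comparisons, for members (red) and all genes compared (grey), with dotted lines at 2-fold. The D1 and D2 panels share D0 with the rule, and the others use no library of the rule. The members' curve lies to the right at its middle in every panel, with medians of 1.31, 1.87, 0.55 and 2.59 against 0.04, 0.06, 0.03 and -0.67.

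The sorted fractions could then be read against D2, the last unsorted library, which the rule did not use, though it did use the fractions. The rule asked GFP+ to lie at least 1 below GFP- of the same day, so the GFP+ counts against D2 were fixed in part. In GFP+ D4, 80 of 108 members were 2-fold lower than at D2 and 0 higher, with a median of -1.48, against 12.7% of 11349 genes lower, 38% higher and a median of 0.61 over all. In GFP+ D8, 79 of 108 were lower and 0 higher, against 15.4% of genes lower and 35.4% higher. In GFP- D4, 11 of 109 were higher and 5 lower than at D2 with a median of 0.35, against 1.79% of 10610 genes higher and 1.31% lower. The 11 were Cma2, Cpz, Fndc10, Gas1, Gda, Lrrn3, Ltb4r2, Nfkbiz, Ptgs2, Reg3g and Sned1, and the 5 lower ones were Mcpt8, Slpi, Stc1, Twist2 and Vip. Of the 98 members 2-fold above D0 at D2, 78 were 2-fold lower in GFP+ D4 than at D2 (94 with median ratio or TMM scaling), 5 were 2-fold lower in GFP- D4, and 6 were 2-fold higher there.

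**Figure D4:**
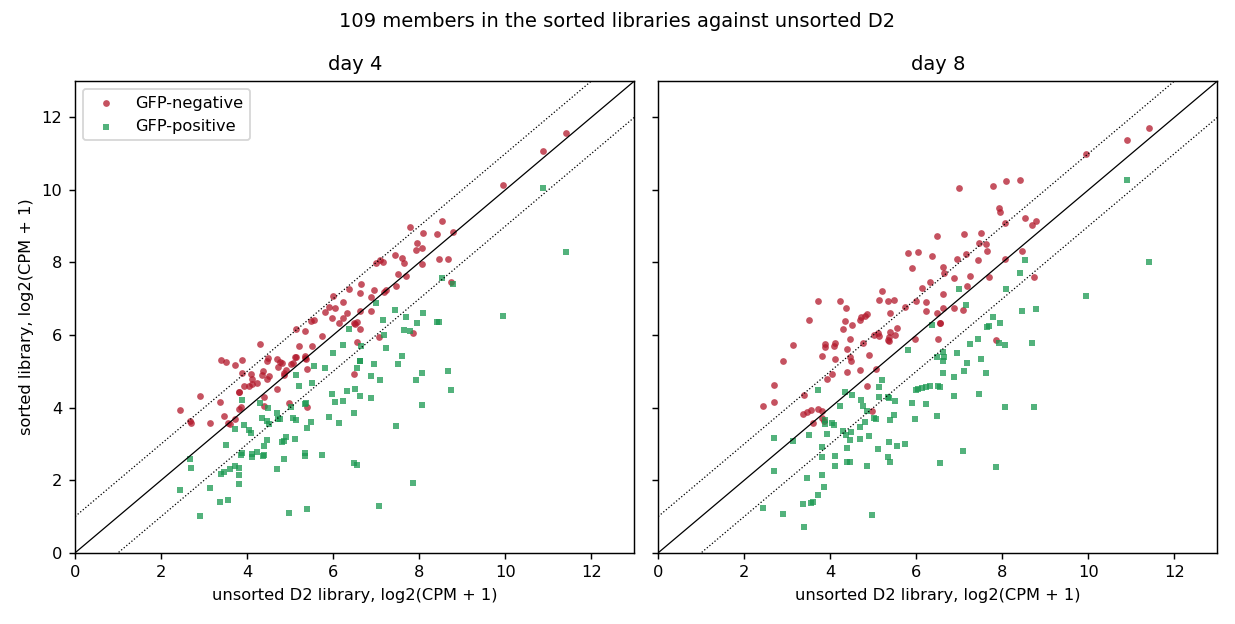
Level of each of the 109 members in the sorted libraries (vertical) against unsorted D2 (horizontal), both in log2(CPM + 1), at day 4 and day 8, with the line of equality and dotted lines at 2-fold. GFP-negative points lie around or above equality and GFP-positive points mostly below it, 80 and 79 of 108 by 2-fold or more at D4 and D8. The rule asked GFP+ to lie below GFP-, so these counts were fixed in part.

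Within the GFP- cells, 30 of 109 were 2-fold above their own D4 level at D8 and 0 below, 88 had a difference above 0, with a median of 0.57, against 3.68% of 10790 genes higher, 1.47% lower and a median of 0.03. The rule set a floor and margins on both libraries, so a gene that fell far from D4 to D8 could drop out of the set. These counts were shaped in part by that. After Stc1, the largest rises were those of Cpxm2 (2.28), Gdpd2 (2.16), Sfrp1 (2.08) and Slpi (2.07), and the lowest differences were those of Reg3g (-0.96), Dmrt2 (-0.59), Cxcl15 (-0.53), Gstk1 (-0.42) and H2-T-ps (-0.37). A monotonic course, higher at each step from D0 through D1 and D2 to GFP- D4 and D8, was seen in 48 members, among them Agtr1a, Aldh1a7, Cma2, Dcn, Inhbb, Lum, Mmp3 and Sfrp1. The rule used D0 and both GFP- libraries, so the ends of this course were fixed in part. No share of all genes with such a course is given. Of the 9 libraries, GFP- D8 held the highest level of 63 members, GF of 16, GFP- D4 of 10, D2 of 9, NSC of 6 and D1 of 5. The rule kept D0 and both GFP+ libraries from being highest, so these counts were fixed in part. No share over all genes is given for them. In GFP+ D8, 9 of 95 members compared were 2-fold above GFP+ D4 and 3 below, against 1.28% and 1.49% of genes.

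In GFP+ against D0, a contrast that the rule fixes in part, 18 of 91 members compared were higher and 3 lower at D4, and 26 of 96 higher and 2 lower at D8, against 38.5% and 35.7% of all genes higher and 11.3% and 13.4% lower. The median gene of these libraries lay 0.66 and 0.57 above D0, and the median member 0.34 and 0.45. In GFP- against D0 and against GFP+, all 109 were higher by the rule, where 11% and 16.4% of genes were higher than D0 and 11.5% and 12.2% higher than GFP+, with 25.4% and 20.3% lower than GFP+.

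Growth factor treated cells and neural stem cells gave a comparison free of the libraries the rule used. It was not free of its choice, since members had 10 CPM or more in both GFP- libraries. The genes set beside them had only to reach 5 CPM in GF or NSC. In GF, 64 of 94 members compared were 2-fold above NSC and 18 below, with a median of 2.59, while 21.2% of 13209 genes were higher, 42.4% lower and the median gene lay at -0.67. The highest differences were those of Dcn (11.42), Mmp3 (11.29), Lum (10.47), Saa3 (10.03) and Ptgs2 (9.01), 4 of which had 0 counts in NSC, so that these differences depend on the pseudocount. The lowest were those of Nell2 (-6.71), Acer2 (-3.85), Lrrn3 (-3.49), Pak3 (-3.45) and Tmem35a (-3.16). In all, 20 members had 3 counts or fewer in NSC, and 4 (Aldh1a7, Cma2, Dpp4 and Vip) had so few in GF.

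Against D0, GF held 61 of 93 members 2-fold higher and 11 lower with a median of 1.45, against 32.1% of 11398 genes higher and 16% lower. NSC held 19 of 88 higher and 43 lower with a median of -0.86, against 49.9% of 12906 genes higher and 17.4% lower. Both share D0 with the rule. Against GFP- D8, GF held 13 of 109 members higher and 69 lower with a median of -1.69, against 24.7% of 11636 genes higher and 21.6% lower. The 16 members highest in GF were Cd34, Cxcl1, Cxcl5, Cyp26b1, Ereg, Glrx, Hpse, Il1r1, Il1rl1, Mmp3, Nfkbiz, Ptges, Ptgs2, Saa3, Slpi and Tnfsf11. Those 2-fold below D0 in GF included Abi3bp, Angpt2, Cpxm2, Dmrt2, Dpp4 and Nell2. In GF all 18 of 18 genes of an interferon-stimulated list, which holds none of the members, were higher than D0, beside 32.1% of all genes. In GFP- D4, 0 of 13 compared were higher and 4 lower, and in GFP- D8 1 of 13 was higher and 6 lower. Over all genes 11% and 16.4% were higher and 5.28% and 6.12% lower in GFP- D4 and D8. The part of the interferon-stimulated genes in the members' levels was not tested.

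Several members are neighbours in the genome. Taking each member with the next member along its chromosome, 15 pairs lay within 1 Mb, and no share over all genes is given. In the CXC chemokine cluster of chromosome 5 (chr5:90759298-91402994), 4 of 11 genes were members: Cxcl5, Cxcl15, Cxcl1 and Ereg. Cxcl2, a neutrophil chemokine that is no member, was at 0.163 CPM at D0, 7.68 CPM at D1, 8.23 and 13.05 CPM in GFP-, 1.69 and 4.05 CPM in GFP+ and 24.8 CPM in GF. Cxcl3 and the EGF receptor ligand Areg reached 6.67 and 16.6 CPM at D1 and 13.4 and 22.7 CPM in GF, and stood below 3 CPM in GFP-. Pf4, platelet factor 4, was at 22.2 and 19.8 CPM in GFP- but 153 and 169 CPM in GFP+, and Btc, betacellulin, at 1.51 and 2.14 CPM against 16.5 and 24.5 CPM. In the metalloprotease cluster of chromosome 9 (chr9:7272514-7699585), Mmp13, Mmp3 and Mmp10 were members among 10 genes, and Mmp12, macrophage elastase, was at 15.1 and 11.7 CPM in GFP- and 68.1 and 140.3 CPM in GFP+.

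In the interleukin 1 receptor cluster of chromosome 1 (chr1:40084692-40551707), 2 of 6 genes were members. Il1rl1, the receptor for interleukin 33, was at 35.6, 442 and 409 CPM over D0 to D2, 274 and 525 in GFP-, 31.5 and 53.9 in GFP+, 2020.2 in GF and 5.59 in NSC. Il1r1, the signalling receptor for interleukin 1, was at 29.96, 72.6 and 78.8 CPM over D0 to D2, 96.8 and 177 in GFP-, 21.2 and 23.2 in GFP+, 256 in GF and 2.79 in NSC. Their D1 levels were 12.4-fold (95% interval 11.7 to 13.1) and 2.42-fold (95% interval 2.26 to 2.60) those of D0. The granzyme and mast cell protease cluster of chromosome 14 (chr14:55941451-56262334) held 3 members, Cma2, Mcpt8 and Gzme, among 15 genes of which 8 were below 1 CPM in every library. Gzme, granzyme E, was at 1.25, 14.3 and 30.4 CPM over D0 to D2, 16.6 and 13.9 in GFP-, 1.12 and 1.04 in GFP+, 5.69 in GF and 0 in NSC. Granzyme B, in the same cluster, went the other way, with 1.83 and 2.85 CPM in GFP- and 20.3 and 46.2 CPM in GFP+. These proteases are close paralogs, so their counts are uncertain wherever reads were shared. Zfp52 and Zfp53 on chromosome 17 lie 524 bases apart and may share reads as well. Zfp53 was at 19.8, 114 and 117 CPM over D0 to D2, 100.4 and 107 in GFP-, 28.1 and 27.8 in GFP+, 6.72 in GF and 23.3 in NSC, and Zfp52 was also above 2-fold at D1.

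**Figure D5:**
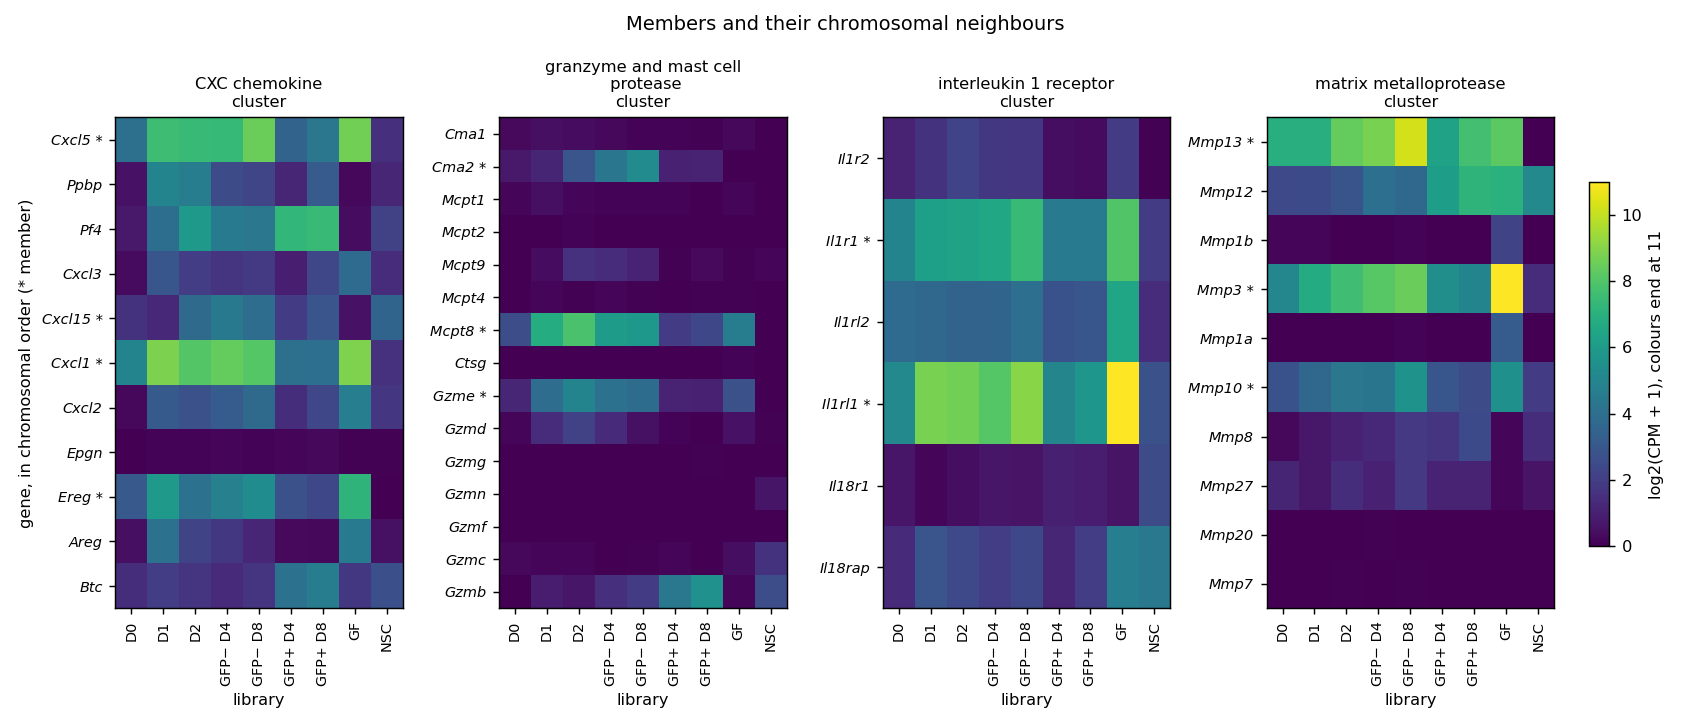
Level in log2(CPM + 1), with colours ending at 11, of every gene in 4 chromosomal clusters, in chromosomal order, by library, with members marked by an asterisk. Members are bright in D1, D2, GFP- or GF beside neighbours that are dark throughout, such as Ctsg, Gzmf and Gzmg, or bright in GFP+, such as Pf4 at 153 and 169 CPM.

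Since Mcpt8, Cma2 and Gzme are known from blood cells, markers of other cell types were read beside them. Of 13 mast cell and basophil markers, a list added after these levels were seen, Fcer1a had 0 counts in all 9 libraries and Cpa3, Ms4a2, Tpsb2 and Prss34 were at 0.490 CPM or less in D0 and all VCR libraries. In both GFP- libraries 11 of the 13 were below 1 CPM, and the others, Il3ra and Gata2, were at 13.5 and 15.8 CPM and at 3.25 and 5.66 CPM. The list summed to 10.2 CPM at D2, where Mcpt8 peaked, 17.9 and 22.5 CPM in GFP- and 52.8 and 64.5 CPM in GFP+. Of 12 lymphoid and natural killer markers, 11 were below 1 CPM in both GFP- libraries, and the list summed to 0.700 CPM at D2. The 16 macrophage markers summed to 119 CPM at D0, 35.6 and 28.6 CPM in GFP- and 363 and 256 CPM in GFP+, and Ptprc, the pan-leukocyte CD45 gene, was at 0.658 and 0.919 CPM in GFP-. The part of these cell types in the levels of the 3 members was not tested.

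Fibroblast identity was checked with 20 markers, 2 of which (Dcn and Lum) are members. They summed to 23798 CPM at D0, 8763 and 11450 CPM in GFP-, 6832 and 6988 CPM in GFP+, 26760 CPM in GF and 725 CPM in NSC. Gene by gene, 4 of 20 were higher and 9 lower than D0 in GFP- D4, and 5 higher and 7 lower in GFP- D8. Against GFP+ of the same day, 10 of 20 were higher and 4 lower in GFP- at D4 (median 1.01) and 15 higher and 4 lower at D8 (median 1.86), against 11.5% and 12.2% of all genes higher and 25.4% and 20.3% lower. The part of the fibroblast markers in the members' levels was not tested. Pdgfra, a receptor gene of mesenchymal cells, was at 79.2 CPM at D0 and 186 and 280.5 CPM in GFP-, and Thy1, a surface glycoprotein of fibroblasts, went from 149 to 99.9 and 87.9 CPM. The adventitial fibroblast list holds the members Cd34, Cd55, Dpp4 and Dpt, which were higher than D0 in GFP- by the rule. With them, 6 of 13 genes compared were higher and 3 lower than D0 in GFP- D4, against 11% and 5.28% of all genes. Of the 16 genes of that list, 3 were below 1 CPM in both GFP- libraries, among them Pi16 and Clec3b at or below 0.0769 CPM. The list summed to 3231 CPM at D0, 3966 and 5044 CPM in GFP- and 1318 and 1611 CPM in GFP+. Against GFP+ of the same day, 11 of 13 compared were higher and 1 lower on both days, the 4 members by the rule. Over all genes 11.5% and 12.2% were higher than GFP+ and 25.4% and 20.3% lower. Sox10, which marks the neural crest and Schwann lineage, was at 9.11 and 14.3 CPM in GFP- and 652 and 748 CPM in GFP+. Cell cycle genes moved beside the members: of 18, 12 were lower than D0 in GFP- D4 and 13 in GFP- D8, with 0 higher, against 5.28% and 6.12% of all genes lower. Their part in the members' levels was not tested.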

How the data were processed

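RNA-seq of 9 libraries was used, 1 per group, with groups taken from the sample labels; the 4 ATAC-seq samples of this series of 13 were not analysed here. The deposited table holds estimated counts per gene symbol, read as such because its columns sum to between 20104940 and 36751356 and hold fractions, although its label names TPM. Per the submitters' processing notes, kallisto 0.43.1 was among the tools; the annotation is not given in the sources used here, nor is the step from transcripts to genes. Reads of paralogs may be shared. CPM were computed from column totals in Python 3.11.15 with pandas 2.3.3, with a pseudocount of 1 on the log2 scale, which understates changes of low genes, and CPM is not corrected for length. A gene was compared where at least 1 library of the pair reached 5 CPM, and higher or lower means a difference of 1 or more. No test was run. Ratios of CPM have no pseudocount, and their 95% intervals are exact, from the binomial distribution of rounded counts given their sum (scipy 1.17.1).

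The members and all gene lists were chosen with earlier results of these data known, the 13 roles were assigned to the members afterwards, and 2 marker lists were added after their levels were seen. Values in all 9 libraries are given for the 12 members furthest above GFP+, up to 4 per gene list by the smaller difference from D0, the 5 highest and 5 lowest at D1 and D2 against D0, in GF against NSC and in GFP- D8 against D4, which are 59 genes. The counts of members against D0 in GFP+, and those raised at D2 and lower in GFP+, were varied by alternatives chosen after seeing the data. Members at the edges of the rule and in gene clusters were added, and genes just outside are given by the threshold value alone. The rule was tested on simulated data. Positions and promoters are from RefSeq, GRCm38.p6. Alternatives were pseudocounts of 0.1 and 5, median ratio scaling over 8290 genes, TMM factors from edgeR 4.0.16 in R 4.3.3, trimmed totals, quantile normalization and other floors.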

Additional observations from a re-analysis of the deposited data

How the results depend on the processing

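With 1 library per group, no value has a replicate error, and depth limits counts near 0, which matters for the 20 members with 3 counts or fewer in NSC. No paired analysis was possible because each group was 1 library. The rule gave 123 members with a pseudocount of 0.1, 80 with 5, 84 with median ratio scaling (77 of them among the 109), 91 with TMM scaling (83), 88 with quantile normalization (73) and 108 (104) where library totals left out mitochondrial genes, ribosomal protein genes and the 20 genes of highest abundance. A floor of 5 CPM, 20 CPM or none gave 132, 91 and 144. Of 69 values recomputed, 65 stayed within 1.5 times. The 4 that did not were counts of members with both GFP+ libraries 2-fold above D0, which went from 15 to 8 with median ratio scaling, 8 with TMM scaling, 9 with quantile normalization and 7 with a pseudocount of 5, and the cause was not tested. The TMM factor was 0.788 for D0 and 1.18 and 1.14 for GFP+, so TMM scaling lowered every GFP+ level relative to D0. Of 59 named genes, 7 lost the 2-fold margin over GFP+ with a pseudocount of 5 and 1, Serpine2, with quantile normalization. The median difference of all genes between NSC and D0 moved from 1.00 to 0.42 with median ratio and -0.16 with TMM scaling, while that of the members stayed below 0 (-0.86, -1.34 and -1.78).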

Other observations

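Other gene lists are given by their counts against D0, where 11% and 16.4% of all genes were higher and 5.28% and 6.12% lower in GFP- D4 and D8. Of 20 p53 targets and CDK inhibitors, none of them members, 7 were higher and 1 lower in GFP- D4 and 5 higher and 1 lower in GFP- D8. Of 14 immediate early and AP-1 genes compared, from a list with 1 member, 8 were higher and 1 lower in GFP- D4, with a median of 1.14 on the log2 scale, and their medians between the fractions were 0.07 and 0.05. Il6, the inflammatory cytokine, was at 78.1 CPM at D1, 21.5 and 9.998 CPM in GFP- and 1.55 and 0.485 CPM in GFP+, and Socs3, a target of the same pathway, stood higher in GFP+ (145 and 371 CPM) than in GFP- (63.3 and 243 CPM). Lcn2, an acute-phase gene, was at 649 CPM in GF and at 8.64 CPM or less in GFP-. These genes were chosen after their values were seen.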
